A study of Homo sapiens with 74 samples.

Results

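The subtelomeric bins of the autosomes are the 100 kb bins that lie within 2 Mb of a chromosome end. They were chosen by position alone, in a table of 28163 bins of chromosomes 1 to 22: bins starting less than 2 Mb from the low end, and bins ending within 2 Mb of the largest bin end listed for the chromosome. The low ends of chromosomes 13, 14, 15, 21 and 22, the short arms of the acrocentric chromosomes, were left out. This gave 802 bins at 39 ends, 20 bins at each low (p) end and 21 at each high (q) end. At q ends the last bin is mostly shorter than 100 kb, and a distance of exactly 2 Mb was counted as within 2 Mb. On chromosomes 5, 6, 8, 14, 16 and 20 the table stops at a whole 100 kb step, so the 21 bins there are all full and distances at those q ends are from the end of the table.

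Contact with the nuclear lamina was measured in HEK293T, a human embryonic kidney cell line that expresses the SV40 large T antigen, by DNA adenine methyltransferase identification (DamID). All Dam constructs were transiently transfected, and per the labels the cells received 1 mM Shield-1, a ligand that stabilises proteins with a destabilised FKBP12 domain, for 20 hours. Bulk DamID had 2 libraries of DamV133A, the untethered V133A variant of the methylase, and 2 of DamV133A-LMNB1, in which it is fused to lamin B1. A comparison of Dam variants had 2 libraries each of DamWT, DamWT-LMNB1, DamV133A and DamV133A-LMNB1, RNA was sequenced in 2 libraries each of cells with DamV133A, DamV133A-LMNB1 or m6ATracer and of untreated cells, and 54 single cells fell into 3 Dam-only cells and 15 DamV133A-LMNB1 cells of a first batch and 36 DamV133A-tdTomato-LMNB1 cells of a second. The labels do not say that replicate libraries came from separate cultures, so p-values measure the spread between libraries, which may be technical.

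The nuclear lamina is a mesh of lamins under the inner nuclear membrane, and the stretches of chromatin that touch it, lamina-associated domains (LADs), are mostly gene-poor and weakly transcribed. Dam methylates the adenine of GATC, and a lamin-tethered Dam marks GATC sites near the lamina, while untethered Dam marks accessible DNA throughout the nucleus. Subtelomeric DNA is rich in genes and in recently duplicated segments at many chromosome ends, and includes known exceptions such as the end of 4q, which holds the repeat array linked to facioscapulohumeral dystrophy and has been described at the nuclear periphery.

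The sequences below are shown because the DamID values that follow are counts of DNA between such sites. They are the 250 bases before the annotated start of 5 genes of the subtelomeric bins, 5′ to 3′ on the gene's strand, from RefSeq on GRCh38.p14, with each GATC in capitals. CHL1 lies at 3p (chr3:196513-196762, plus strand), in a bin above the untethered control. FRG2 lies at 4q (chr4:190027257-190027506, minus strand) and ZNF669 at 1q (chr1:247104357-247104606, minus strand), in bins that were not called. IFITM1 lies at 11p (chr11:313790-314039, plus strand) and MAPK8IP3 at 16p (chr16:1705945-1706194, plus strand), in bins below the control.
CHL1: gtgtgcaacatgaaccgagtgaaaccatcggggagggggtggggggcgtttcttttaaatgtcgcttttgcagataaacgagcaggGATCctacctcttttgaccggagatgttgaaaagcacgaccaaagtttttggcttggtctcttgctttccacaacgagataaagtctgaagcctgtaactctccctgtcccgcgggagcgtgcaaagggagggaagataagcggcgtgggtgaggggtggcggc
FRG2: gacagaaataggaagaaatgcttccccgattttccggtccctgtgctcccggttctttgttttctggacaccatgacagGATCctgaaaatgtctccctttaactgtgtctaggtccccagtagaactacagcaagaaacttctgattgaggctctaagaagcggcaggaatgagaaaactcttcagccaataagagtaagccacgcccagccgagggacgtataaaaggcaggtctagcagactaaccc
ZNF669: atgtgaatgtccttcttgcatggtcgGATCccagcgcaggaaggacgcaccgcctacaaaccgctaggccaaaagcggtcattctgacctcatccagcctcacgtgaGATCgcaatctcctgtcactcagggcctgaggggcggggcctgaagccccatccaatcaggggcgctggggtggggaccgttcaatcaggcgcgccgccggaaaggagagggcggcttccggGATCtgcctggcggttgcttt
IFITM1: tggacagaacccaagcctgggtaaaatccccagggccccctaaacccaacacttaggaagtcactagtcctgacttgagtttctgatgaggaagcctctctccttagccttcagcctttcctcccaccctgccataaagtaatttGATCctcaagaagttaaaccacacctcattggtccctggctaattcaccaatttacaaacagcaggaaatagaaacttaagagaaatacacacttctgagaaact
MAPK8IP3: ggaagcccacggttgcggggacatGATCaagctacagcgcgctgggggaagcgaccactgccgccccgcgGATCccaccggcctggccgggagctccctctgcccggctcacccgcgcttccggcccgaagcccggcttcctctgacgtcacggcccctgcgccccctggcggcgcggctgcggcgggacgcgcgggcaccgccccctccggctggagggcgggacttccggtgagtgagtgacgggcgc

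The motif GATC reads the same on both strands and was searched without overlap with any other motif. It lay in the 250 bases of 29.7% of 1305 promoters of protein-coding genes in the subtelomeric bins. The share was 34.1% of 21155 promoters of protein-coding genes placed in any bin, and 35.7% of all 33725 autosomal RefSeq promoters. All 24 distinct GATC sites found in the 250 bases of 18 genes described here lay within 4 bases of a border between 2 DpnI fragments of the deposited fragment table. Single fragments carried few counts. The fragments overlapping the CHL1, ZNF669 and MAPK8IP3 stretches had 0 counts in all 8 variant libraries, and those at FRG2 had 74 counts in 1 DamV133A-LMNB1 library and 0 in the other 7. Levels were therefore read over bins. Sites were about as dense near the ends as elsewhere, with a median of 238 GATC fragments per full bin against 243 in bins more than 4 Mb from the ends used.

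In bulk, most of the subtelomeric DNA lay below the untethered control. The subtelomeric bins had on average 26.2 and 27.0 CPM (counts scaled to a total of 1000000 per library, here over the autosomal bins) in the 2 DamV133A libraries and 15.1 in each of the 2 DamV133A-LMNB1 libraries. Other bins had 35.8 and 36.1 CPM, which the fixed total holds nearly constant. The groups did not overlap. On the log2 scale the subtelomeric bins stood at -0.45 and -0.41 relative to other bins with DamV133A and at -1.26 in both libraries of the fusion, a difference of -0.83 ± 0.03 (SD, n = 2 and 2). An exact two-sided permutation test over 4 libraries cannot go below p = 0.333, and gave that value. The level was therefore already low with untethered Dam and was lower again with the lamin fusion.

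Of 800 subtelomeric bins that could be tested (edgeR's quasi-likelihood test, Benjamini-Hochberg adjusted p under 0.05 over 27944 bins), 67 were called higher in the fusion and 529 lower. That is 8.38% higher and 66.1% lower, against 35.2% higher and 36.2% lower over all bins tested. The median log2 fold change was -0.83 in the subtelomeric bins and -0.06 over all bins. The 2 bins that were not tested, 1 at 18q and 1 at 21q, did not pass the filter on low counts. Without DamV133A library 1 the number called lower fell to 344, and without DamV133A library 2 to 291. The number called higher stayed between 52 and 68 when any 1 of the 4 libraries was left out. In the authors' deposited table, 9 of the 802 bins (1.12%) carried the mark of a control LAD bin and 61 (7.61%) that of a control inter-LAD bin, against 4.21% and 4.26% of all bins.

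The 67 higher bins were concentrated at few ends. When counts were summed over 2 Mb windows, all 39 ends passed the test (edgeR, adjusted over 1426 windows), 5 higher and 34 lower. Over all windows 44.4% were called higher and 46.4% lower, so a call as such was common and the direction is what differs between ends. The 5 higher ends, 3p, 4q, 1q, 9p and 18p, held 66 of the 67 higher bins among their 102 tested bins. The other 34 ends had 1 higher and 524 lower bins of 698, and 33 of the 39 ends had no higher bin at all.

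**Figure D1:**
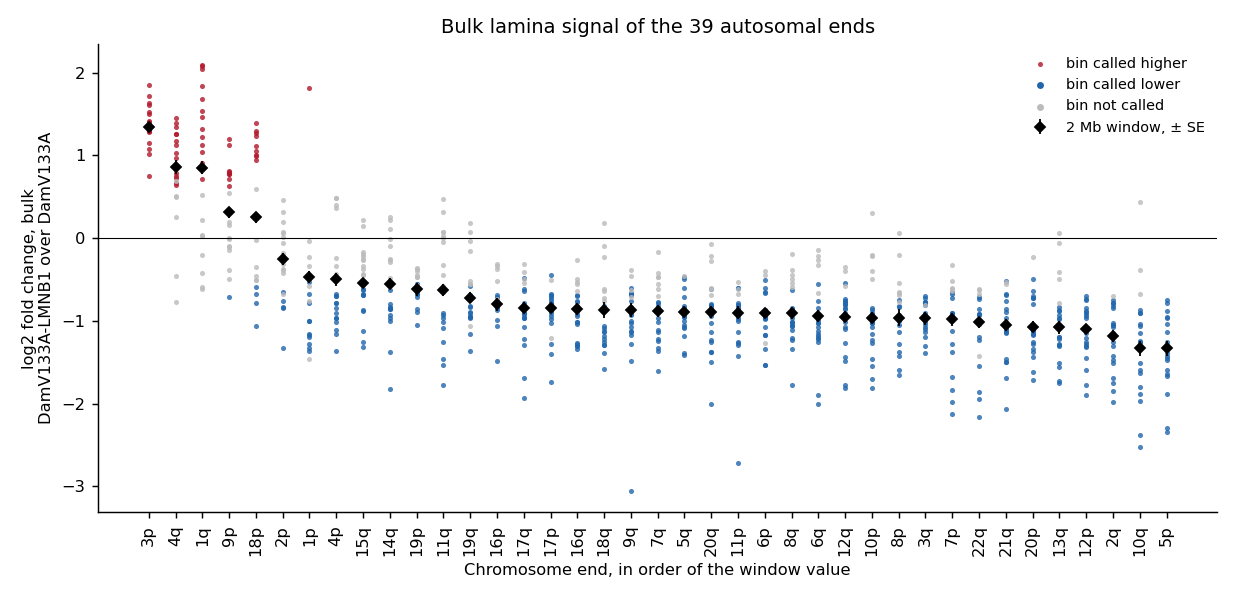
Log2 fold change of DamV133A-LMNB1 over DamV133A in bulk for the 39 autosomal ends, with 1 point per 100 kb bin, coloured by its call, and a black diamond with its standard error for the 2 Mb window. From 3p, at 1.34, the window values fall to -1.33 at 10q and 5p, and only the 5 ends at the left lie above 0.

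The end of 3p was the highest of all. Its mean level per bin was 29.3 and 28.8 CPM in the DamV133A libraries and 61.4 and 63.0 CPM in the fusion libraries. Both fusion libraries were above both controls by a wide margin. The window's log2 fold change was 1.34 ± 0.04 (SE, edgeR adjusted p = 1.8e-15), and each of its 20 bins was called higher, from 0.75 at the outermost to 1.85 at 1500001 to 1600000 of chromosome 3. This was the only end with every bin higher, and its outermost bin was the only higher one among the outermost tested bins of the 39 ends. Only 2 protein-coding genes lie there, CHL1 and CNTN6, both neural cell adhesion molecules of the immunoglobulin superfamily. CHL1 had 0.156 and 0.119 CPM and CNTN6 0.178 and 0.0952 CPM in untreated RNA libraries.

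At 4q, the levels per bin were 13.8 and 15.7 CPM in the controls and 22.2 and 22.9 CPM in the fusion. The window's log2 fold change was 0.86 ± 0.08 (SE, edgeR adjusted p = 4.0e-09), with 15 of 21 bins called higher. The highest bin, 188600001 to 188700000, reached 1.45 ± 0.26. The bins toward the end of the chromosome differed from each other. The bin of FRG1 was at 0.67 ± 0.29 (edgeR adjusted p = 0.0405), whereas the next bin outward, that of FRG2, was at -0.77 ± 0.34 (edgeR adjusted p = 0.0505) and that of DUX4, the transcription factor of early embryos encoded in the repeat array, at -0.46 ± 0.3 (edgeR adjusted p = 0.169). In the FRG2 bin the 4 libraries read 6.0 and 8.7 CPM in the controls and 3.59 and 3.62 CPM in the fusion. The last, partial bin (190200001 to 190214555) held 0.109 CPM or less in every library and was at 0.69 ± 0.97. None of these last 3 bins was called.

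At 1q, the controls had 15.1 and 16.8 CPM per bin and the fusion libraries 23.0 and 25.7 CPM, and the window was at 0.85 ± 0.08 (SE, edgeR adjusted p = 6.0e-09). Its 13 higher bins formed 1 unbroken run from 247500001 to 248800000. The run holds a cluster of olfactory receptor genes, which encode odorant receptors of the nasal epithelium: 42 of the 43 olfactory receptor genes of this end lie in higher bins. Its highest bin, 248300001 to 248400000 with OR2M7, OR14C36, OR2T4 and OR2T6, had 10.1 and 9.48 CPM in the controls and 21.7 and 48.1 CPM in the fusion, a log2 fold change of 2.09 ± 0.3. The fusion libraries differed from each other but both were above the controls. On either side of the run lie zinc finger genes, most of which encode transcriptional repressors, in bins that were not called. The bin of ZNF695 was at -0.42 ± 0.23, that of ZNF496 at -0.59 ± 0.28 and that of ZNF672 and ZNF692 at -0.61 ± 0.28 (edgeR adjusted p = 0.0572).

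The other two higher ends were divided within their 2 Mb. At 9p the levels were 19.8 and 19.3 CPM in the controls and 21.2 and 19.8 CPM in the fusion, so the groups touched on this scale. The window was at 0.31 ± 0.07 after TMM scaling, and 9 of 20 bins were higher. Of these, 8 lay in 1 run without the midpoint of a protein-coding gene, from 1100001 to 1900000. The highest value, 1.2 ± 0.28, was at 1200001 to 1300000. Closer to the end, the bin of DOCK8, an exchange factor of blood cells, was at 0.0 ± 0.24, and that of KANK1, a regulator of actin, at -0.5 ± 0.24. Neither bin passed the test. At 18p the levels were 22.2 and 22.9 CPM in the controls and 23.7 and 21.6 CPM in the fusion, which overlapped, and the window was at 0.25 ± 0.07. The inner 1 Mb was nearly all higher, with 9 of its 10 bins called and a highest value of 1.39 ± 0.23. The outer 1 Mb had 0 higher and 4 lower bins, among them that of THOC1, a subunit of the THO complex of mRNA export, at -1.06 ± 0.24 and that of YES1, a Src-family kinase, at -0.59 ± 0.22.

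The calls of 9p and 18p, but not those of 3p, 4q and 1q, depended on the scaling. With library totals in place of TMM, the median of all windows moved from -0.02 to -0.26, 9p stood at 0.07 (edgeR adjusted p = 0.393) and 18p at 0.01 (edgeR adjusted p = 0.911). Relative to the median of all windows both ends were above it under either scaling. Without DamV133A-LMNB1 library 1, 18p was at 0.18 (edgeR adjusted p = 0.0569).

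**Figure D2:**
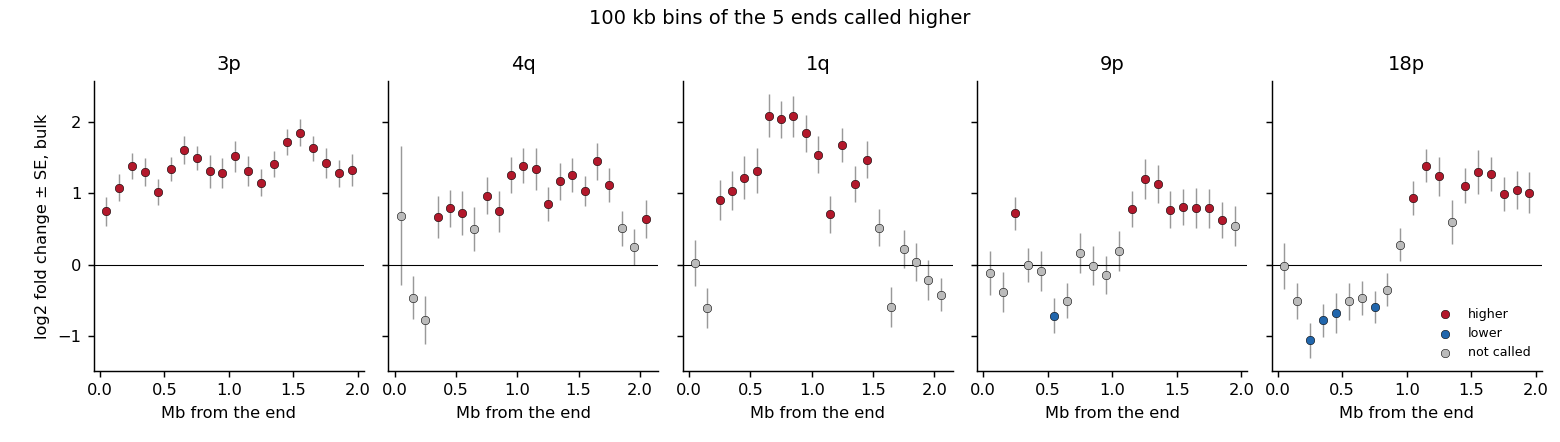
Log2 fold change with its standard error for each tested 100 kb bin of the 5 ends called higher, against its distance in Mb from the chromosome end. At 3p each bin is higher, at 1q the higher bins form 1 block between uncalled flanks, and at 18p lower bins outside give way to higher bins from about 1 Mb inward.

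Among the lower ends, 5p and 10q were lowest. At 5p the levels were 23.3 and 20.9 CPM in the controls and 8.0 and 6.83 CPM in the fusion, with no overlap, and the window was at -1.33 ± 0.09 (SE, edgeR adjusted p = 3.4e-11). All 20 of its bins were called lower. The lowest, 700001 to 800000 with the palmitoyltransferase gene ZDHHC11B, was at -2.35 ± 0.35. At 10q the levels were 21.7 and 21.3 CPM against 8.02 and 6.48 CPM, the window was at -1.33 ± 0.09 (SE, edgeR adjusted p = 6.3e-11), and 18 of 21 bins were lower. Its lowest bin, at -2.52 ± 0.36, holds FRG2B, a copy of the 4q gene FRG2.

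Next came 2q at -1.18 ± 0.07, 12p at -1.1 ± 0.06, 13q at -1.08 ± 0.08 and 20p at -1.07 ± 0.07. Every bin of 12p was lower, and 5p and 12p were the 2 ends with that pattern. Lowest in each were the bin at 240200001 to 240300000 of chromosome 2 (-1.98 ± 0.31), the outermost bin of 12p (-1.9 ± 0.3), the bin of CUL4A, a scaffold of ubiquitin ligases, at 13q (-1.75 ± 0.3), and that of the proteasome inhibitor gene PSMF1 at 20p (-1.72 ± 0.28). The lower end nearest to 0 was 2p, where the libraries had 26.7 and 25.0 CPM in the controls and 18.4 and 18.3 CPM in the fusion and the window was at -0.25 ± 0.07 (SE, edgeR adjusted p = 0.00196). Only 5 of its 20 bins were lower.

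The single higher bin outside the 5 ends, 600001 to 700000 of chromosome 1, drew nearly all its counts from 1 place. In bulk it had 17.5 and 11.5 CPM with DamV133A and 44.5 and 40.7 CPM with the fusion, a log2 fold change of 1.82 ± 0.24 (edgeR adjusted p = 1.3e-06). In the variant libraries, between 92.7% and 99.1% of the counts of this bin lay in 1 DpnI fragment of 1147 bases, chr1:633902-635048. RefSeq places there the pseudogenes MTATP6P1 and MTCO3P12, part of a run of 7 nuclear copies of mitochondrial genes between 629062 and 634922. Reads of near-identical mitochondrial copies could not be told apart from it here, so its counts are uncertain. It was not the only bin with 1 dominant fragment: 57 and 51 subtelomeric bins of the DamV133A-LMNB1 libraries and 5 to 23 of the other variant libraries had at least 90% of their counts in 1 fragment. The olfactory receptor gene OR4F16 in the same bin had 0 CPM in all 8 RNA libraries. Without this bin, the plain log2 ratio of CPM at 1p went from -0.71 to -0.91 in bulk and from 0.1 to -2.1 in the V133A variant libraries, an alternative chosen after seeing the data.

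The lower level showed no clear dependence on distance within the 2 Mb. From the outermost 0.5 Mb inward, the median log2 fold change of 0.5 Mb classes was -0.92, -0.83, -0.74 and -0.82, and 69.9%, 69.2%, 58.5% and 67.7% of their tested bins were lower. The next 2 Mb inward, which are not among the subtelomeric bins, were like them: 53 of 780 bins were called higher and 524 lower, and their median was -0.83. Bins farther inward had a median of 0.02. Of the outermost tested bins of the 39 ends, 22 were lower, 16 were not called and 1 was higher, with a median of -0.96. The lowest were at 9q (-3.06 ± 0.59) and 11p (-2.72 ± 1.01). The 9q bin had 1.33 and 1.81 CPM in the controls and 0.121 and 0.194 CPM in the fusion, far fewer counts than a usual bin.

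**Figure D3:**
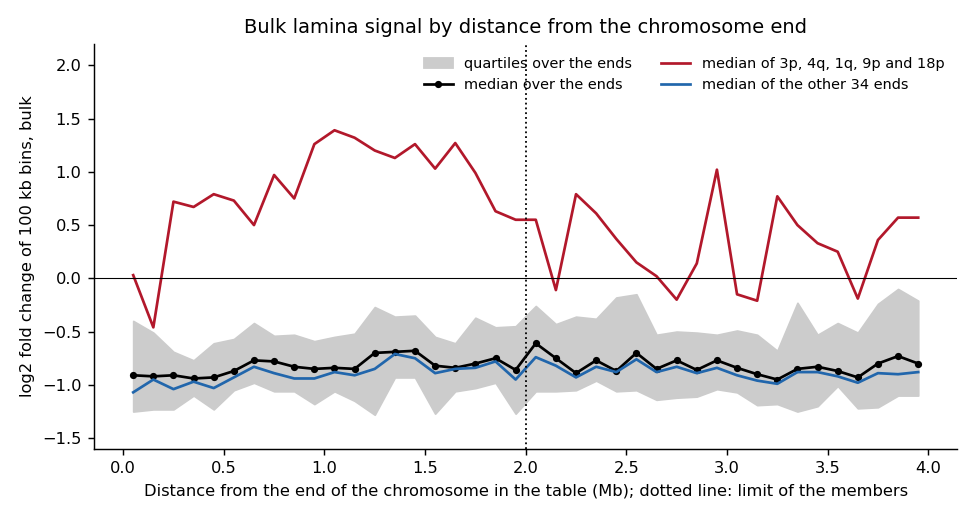
Median and quartiles over the ends of the bulk log2 fold change of 100 kb bins against distance from the chromosome end in Mb, with separate medians for the 5 higher ends and the other 34 ends. The overall median stays between -0.95 and -0.61 across 4 Mb, and the median of the 5 higher ends lies above that of the other ends at each distance.

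The subtelomeric bins hold many genes, 16.2 protein-coding genes per Mb against 6.37 per Mb in bins farther inward. Each gene was counted only in the bin of its midpoint, so a bin inside a long gene can count as having none. The lower level was present in bins without a gene midpoint as well. Of 287 such tested subtelomeric bins, 17.4% were higher and 54.4% lower, and their median was -0.75. Of 16579 other bins without a gene midpoint, 49.1% were higher and 20.5% lower (median 0.54). With 2 to 3 genes the values came closer, at 79.5% lower of 190 subtelomeric bins and 71.4% lower of 2955 other bins, and medians of -0.92 and -0.82. With 4 or more genes the order turned: 64.1% of 117 subtelomeric bins were lower against 84.9% of 797 other bins, and the medians were -0.7 and -0.85. Members of 1 end neighbour each other, so these shares are given without a test.

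Untethered Dam also marked these bins less. The median level of full bins with DamV133A was 24.3 CPM, or 0.101 CPM per GATC fragment, against 35.5 CPM and 0.143 CPM per GATC fragment in bins more than 4 Mb from the ends used. Bins 2 to 4 Mb from the same ends were near the subtelomeric ones, at 26.1 CPM and 0.105 CPM per GATC fragment. Pooled, the subtelomeric bins of the 5 higher ends had 0.0777 CPM per GATC fragment with untethered Dam, against 0.106 CPM in those of the other 34 ends. These ends were called by their ratio to the same DamV133A libraries, which favours low DamV133A levels. At 3p the mean per bin with DamV133A was 29.3 and 28.8 CPM, above the 26.2 and 27.0 CPM of all subtelomeric bins. Those of 4q, 1q, 9p and 18p were below.

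The comparison of Dam variants repeated the direction of the pooled subtelomeric bins in other libraries. Relative to other bins, the subtelomeric level was -0.74 and -0.71 on the log2 scale with DamWT and -1.21 and -1.23 with DamWT-LMNB1. It was -0.7 and -0.69 with DamV133A and -1.85 and -1.88 with DamV133A-LMNB1. By counts, each fusion was below its own control in both libraries, and the V133A fusion was the lowest of the 4 constructs. By fragments with any count the V133A order held, at -0.39 and -0.44 against -1.07 and -1.19, but wild-type libraries overlapped, at -0.49 and -0.53 for DamWT and -0.51 and -0.86 for DamWT-LMNB1. The difference was -1.17 ± 0.02 (SD, n = 2 and 2) for V133A and -0.49 ± 0.03 (SD, n = 2 and 2) for the wild type. The difference between the variants, -0.68 ± 0.03, had an exact permutation p of 0.333, with libraries permuted within each variant in 36 arrangements (two-sided). Each arrangement that kept or fully swapped the V133A groups reached this size whatever the wild-type labels. The p therefore followed from the larger V133A difference and cannot decide whether the variants differ. The values rest on few fragments: in the DamV133A-LMNB1 libraries the median subtelomeric bin had counts in 7 and 6 fragments, against 14 in other bins. By end, the plain log2 ratios of CPM at 3p, 4q and 1q were 1.26, 0.58 and 0.85 with V133A and 0.63, 0.27 and 0.37 with the wild type. At 9p they were -0.02 and 0.24, and at 18p -0.11 and -0.18. These ratios are not TMM-scaled. With library totals in edgeR, the median of all bins was -0.51 for V133A and -0.17 for the wild type.

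**Figure D4:**
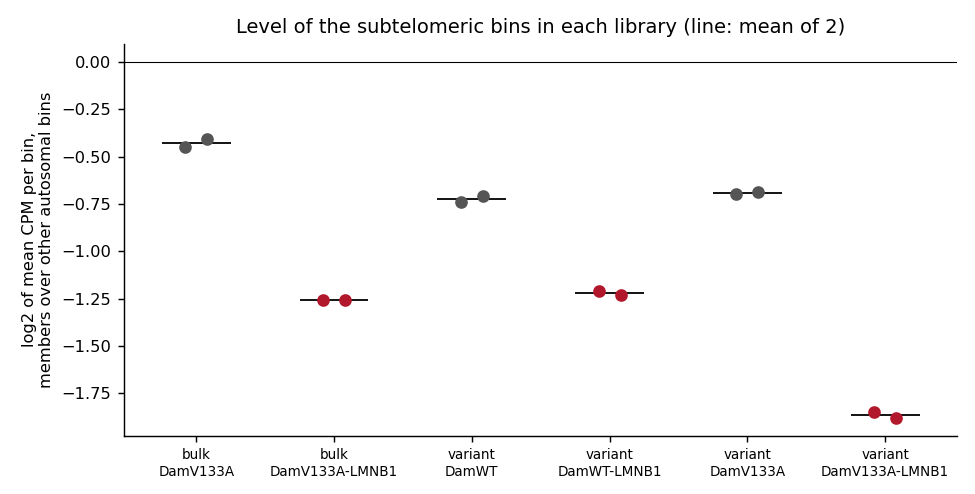
Level of the subtelomeric bins relative to other autosomal bins in each bulk and variant library, as log2 of the ratio of mean CPM per bin, with 1 point per library and a line at the mean of 2. The fusion libraries (red) lie below the untethered libraries (grey) in each experiment, lowest at -1.88 for DamV133A-LMNB1.

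Bin by bin, 42 of 787 tested subtelomeric bins were higher and 348 lower in DamV133A-LMNB1 over DamV133A (edgeR, adjusted over 27119 bins), where 27.9% of all bins were higher and 24.4% lower. The median was -1.57, against -0.07 in other bins. Without DamV133A library 1 or 2 the number called lower fell to 172 or 180. The calls did not contradict those of the deep bulk libraries in any bin: of the bins higher in bulk 40 were higher and 0 lower here, and of those lower in bulk 300 were lower and 0 higher. With wild-type Dam, 0 of 787 subtelomeric bins were called by edgeR, where 1.93% of all bins were, and their median was -0.52. At an unadjusted p under 0.05 there were 83 (10.5%), against 21.0% of all bins, and DESeq2 called 47. Without DamWT-LMNB1 library 2, edgeR called 44, and without either DamV133A-LMNB1 library 13. In simulated libraries of this depth, 200 bins were changed by 1 on the log2 scale in DamV133A-LMNB1, and 4.5% of them were recovered. Far more bins, 14167, were called in the real V133A libraries, and the wild-type comparison was not simulated. The 4.5% is therefore not the power of the wild-type test. Untethered V133A over wild-type Dam had 0 called bins by edgeR and 16 subtelomeric bins (2.03%) at an unadjusted p under 0.05, against 4.95% of all bins, with a median of 0.06.

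The direct test of whether the fusion acted differently with the 2 Dam variants called 6 subtelomeric bins, 1 higher and 5 lower. This share, 0.762%, was near the 0.649% called over all bins. The higher one was the bin of mitochondrial pseudogenes at 1p. Of the lower ones, the bin of the phosphatase subunit gene PPP2R2D and of BNIP3 at 10q had 20.2 and 20.9 CPM with DamWT, 25.2 and 10.8 CPM with DamWT-LMNB1, 43.1 and 32.9 CPM with DamV133A, and 0.427 and 0.555 CPM with DamV133A-LMNB1. The last 2 values rest on 4 and 5 counts. It was nearly empty with the V133A fusion and well covered in the other 6 libraries. The calls were unstable: edgeR gave 0 without any 1 of the 2 DamWT libraries, the 2 DamV133A libraries or DamWT-LMNB1 library 1, but 92 and 96 without DamV133A-LMNB1 library 1 and 2 and 23 without DamWT-LMNB1 library 2, and DESeq2 called 105.

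Single cells showed the same low level, with much spread. For each cell, the fragments in a set of bins were divided by the number expected from the summed bulk DamV133A libraries. Over all subtelomeric bins the 3 Dam-only cells had 1.08, 1.16 and 1.21 times the expected fragments. The 15 DamV133A-LMNB1 cells ranged from 0.358 to 1.2 with a median of 0.589, and 14 of them were under 1. The 36 cells of the second batch ranged from 0.444 to 1.49 with a median of 0.697, and 31 were under 1. For comparison, the summed bulk fusion libraries were at 0.567. Bins 2 to 4 Mb from the same ends were alike, with medians of 1.17 in Dam-only, 0.539 in batch 1 fusion and 0.696 in batch 2 fusion cells. Cells are not replicates and a group of cells is 1 sample, so no test is given; the second batch also differs in construct and library kit, which cannot be told apart. A cell held between 179 and 6408 subtelomeric fragments.

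**Figure D5:**
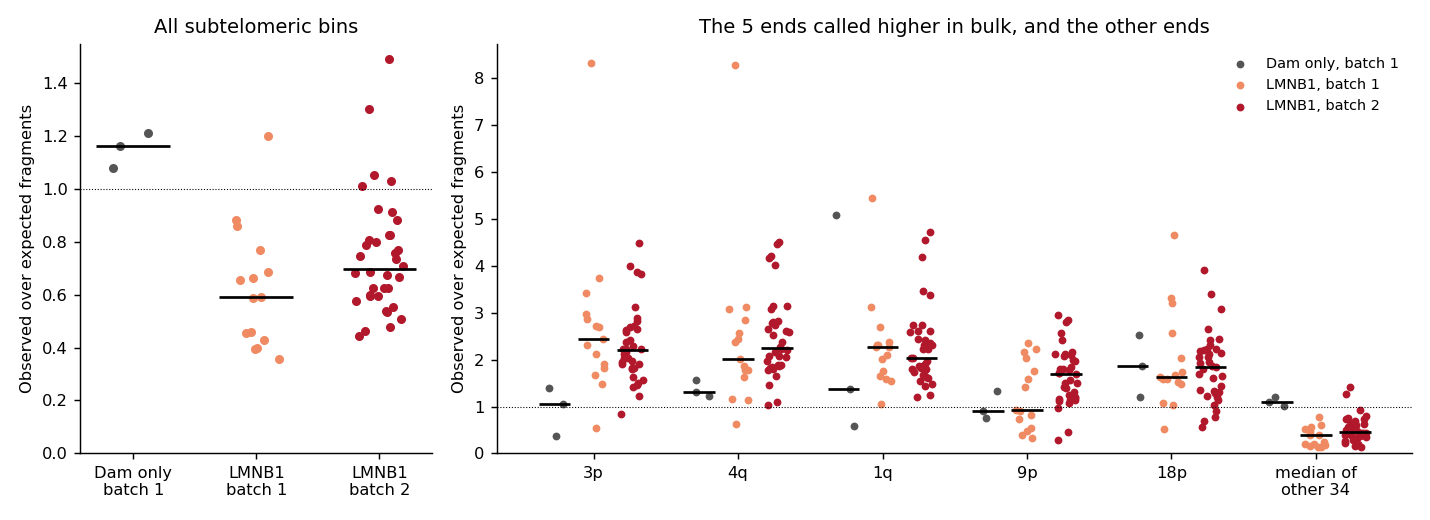
Observed over expected fragments per cell, with 1 point per cell and a line at the median, for all 802 subtelomeric bins (left) and for each of the 5 ends called higher in bulk, beside the median of the other 34 ends (right); the dotted line marks 1. Most fusion cells lie under 1 over all bins and above 1 at 3p, 4q, 1q and 18p.

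The 5 higher ends were mostly above 1 in fusion cells. The median cell had 4 of them at or above 1 in batch 1 (3 to 5) and 5 in batch 2 (4 to 5). Dam-only cells also had a median of 4 (2 to 5), and all 3 reached 1 at 4q and 18p. The expected level came from the bulk DamV133A libraries that also served to call these ends. Reaching 1 therefore does not by itself set fusion cells apart. Which of the 5 ends was highest varied from cell to cell: 3p, first in bulk, was the highest in 6 of 15 and 11 of 36 fusion cells. Observed over expected at 3p was 2.45 in the median batch 1 fusion cell (0.543 to 8.32) and 2.2 in batch 2 (0.834 to 4.48), against 0.372, 1.05 and 1.4 in Dam-only cells. It reached 1 in 14 of 15 and 35 of 36 fusion cells. At 1q the medians were 2.26 and 2.04, and all 15 and all 36 fusion cells reached 1, as did 2 of the 3 Dam-only cells. The end of 9p differed between the batches: its median was 0.917 in batch 1, where 7 of 15 cells reached 1, and 1.7 in batch 2, where 33 of 36 did. At the other extreme, 5p had medians of 0.161 and 0.46, and reached 1 in 0 of 15 and 3 of 36 cells. It was low in the 3 Dam-only cells too, at 0.872 or less.

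Of the 34 ends lower in bulk, the median fusion cell had 1 at or above the expected level in batch 1 (0 to 13) and 4 in batch 2 (1 to 28), against 18 to 23 in Dam-only cells. Some lower ends were at or above 1 in many cells of batch 2: 11q in 23 of 36, 14q in 18, 2p and 18q in 17 each and 8p in 16. In batch 1 the same ends reached 1 in 4, 3, 1, 3 and 0 of 15 cells, and in Dam-only cells in 0, 1, 2, 2 and 2 of 3. At 11q, although lower in bulk, the batch 2 median of 1.1 was above the highest Dam-only cell, at 0.858. At 6p 0 fusion cells of either batch reached 1. Across the 39 ends, the bulk log2 fold change and the share of fusion cells reaching 1 had a Pearson r of 0.9 and a Spearman rho of 0.63 in batch 1, and 0.87 and 0.59 in batch 2. These are descriptions across ends that share cells and libraries.

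At 3 subtelomeric bins the signal was high in nearly every cell of every group, Dam-only cells included. They are 1 bin at 4q with DUX4 (190100001 to 190200000), 1 at 10q with FRG2B (133600001 to 133700000) and 1 at 18p with the deubiquitinase gene USP14 (100001 to 200000). In Dam-only cells their median observed over expected was 11.5, 9.65 and 12.8, and in the fusion cells 8.25, 4.41 and 9.35 in batch 1 and 9.01, 4.2 and 9.56 in batch 2. In bulk none was above the control, and the FRG2B bin was the lowest of 10q. Only 0.0732% of bins elsewhere, 20 of 27334, likewise reached 1 in at least 80% of the cells of each group. Whether repeated sequence, which the ends of 4q and 10q share, sets these counts was not tested. Without these bins, chosen after seeing the data, 4q kept medians of 1.65 and 1.86 in fusion cells, with 10 of 15 and 34 of 36 reaching 1, and its Dam-only median went from 1.32 to 0.69. The medians of 18p went from 1.62 and 1.85 to 1.13 and 1.33, with 9 of 15 and 22 of 36 cells reaching 1, while its Dam-only median, 1.86 with and 1.15 without the bin, was as high, and the medians of 10q went from 0.446 and 0.685 to 0.301 and 0.425.

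Counted by bin, with a bin taken as contacted when it held at least the expected number of fragments, Dam-only cells had on average 40.0% of the subtelomeric bins contacted, batch 1 fusion cells 19.2% and batch 2 fusion cells 27.0%. Of other bins, 37.0%, 35.1% and 39.7% were contacted in the same groups. Bins 2 to 4 Mb from the ends were like the subtelomeric ones, at 42.1%, 20.4% and 27.7%. The subtelomeric bins higher in bulk were contacted in 62.7% and 71.1% of cases in the 2 batches of fusion cells. In Dam-only cells the share was 38.3%. The subtelomeric bins lower in bulk were contacted in 12.5% and 18.3%, against 41.5% in Dam-only cells. Higher and lower bins outside the ends gave similar shares in fusion cells, 59.8% and 62.2% for higher bins and 14.4% and 17.1% for lower ones. Thinned to 10000 fragments per cell, which left out 1 batch 1 cell, the share fell to 22.0% in Dam-only cells, 11.9% in batch 1 and 15.6% in batch 2, so shares of single bins depend on depth.

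The RNA libraries had the markers of the line, with VIM between 586 and 791 CPM and NEFM between 142 and 241 CPM, and the leukocyte, liver, endothelial and fibroblast markers PTPRC, ALB, PECAM1 and COL1A2 were at 0.857 CPM or less. Of 1286 protein-coding genes placed by midpoint in subtelomeric bins, 1207 were matched to the RNA table. In untreated cells 72.8% ± 0.23 of them (SD, n = 2) reached 1 CPM, against 67.2% ± 0.1 of genes in other bins. By bin call, 899 of the 1286 genes lay in lower bins, 338 in uncalled ones and 49 in higher ones. Of the genes in lower bins 76.4% reached 1 CPM. The 49 genes in higher bins lie in 17 bins, and 43 of them are olfactory receptor genes. Of the 49, 4.08%, 2 genes, reached 1 CPM. In higher bins elsewhere 42.5% of 2044 matched genes did, and there 212 of 2111 genes were olfactory receptor genes.

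Those 2 genes, named after their values were seen, were FRG1, a gene with a role in RNA processing, at 4.82 and 4.4 CPM in untreated cells, and the olfactory receptor gene OR2C3 at 13.1 and 12.3 CPM. OR2C3 lies close to GCSAML, which had 0.467 and 0.595 CPM. The authors' counting is not stated to use strand, so reads of overlapping transcripts cannot be told apart. The other 41 olfactory receptor genes of the 1q run and OR4F16 were under 1 CPM in untreated cells. Beyond olfactory receptors, 63.9% of 36 genes of the higher ends with RNA values reached 1 CPM, FRG1 being the only one of them in a higher bin. The most abundant were TYMS, which encodes thymidylate synthase, at 169 and 165 CPM, and USP14 at 119 CPM in both untreated libraries, both at 18p in uncalled bins (-0.46 ± 0.24 and -0.51 ± 0.25). At 1q these were ZNF496 at 45.4 and 46.4 CPM, and at 9p ZNG1A at 30.4 and 29.8 CPM.

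Gene families differed in where they lay; for comparison, 69.9% of all subtelomeric genes were in lower and 3.81% in higher bins. Of 54 olfactory receptor genes in subtelomeric bins 43 were in higher, 6 in lower and 5 in uncalled bins, and of 332 elsewhere 212 were in higher and 50 in lower bins. Of the 43 subtelomeric ones in higher bins, 42 lay at 1q and 1 in the 1p bin of mitochondrial pseudogenes. The 81 zinc finger genes of subtelomeric bins lie in only 39 bins at 10 ends. Of them 0 were in higher and 60 in lower bins, a lower share close to that of all subtelomeric genes. Of 424 zinc finger genes elsewhere, 18 were in higher and 270 in lower bins. Every one of the 8 genes of the alpha-globin region at 16p, which encode the alpha chains of haemoglobin and their neighbours, was in a lower bin, with -0.71 ± 0.21 for the bin of HBA1 and HBA2, but they share 3 bins. So were the 4 gel-forming mucin genes and the 4 IFITM genes of 11p, which encode antiviral membrane proteins, and all 6 KRTAP5 genes of 11p, which lie in only 3, 2 and 2 bins. Of the globin genes in the same bin, HBA2 had 0.138 to 0.756 CPM and HBA1 1.58 to 3.46 CPM over the 8 RNA libraries, and 5 of the 8 genes of that region reached 1 CPM.

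Of 10 genes from duplicated subtelomeric families, 5 were in lower and 5 in uncalled bins. The bin of OR4F5 at 1p was at -1.2 ± 0.32 and that of WASHC1, a subunit of an actin-nucleating complex, at 9p was at -0.11 ± 0.31. Such families share near-identical copies between ends, so their counts are uncertain. Of 9 shelterin and telomerase genes 8 could be placed, and 2 of them lie in subtelomeric bins: TERT, the catalytic subunit of telomerase, at -1.39 ± 0.34, and RTEL1, a helicase of telomeres, at -1.03 ± 0.25, both lower (edgeR adjusted p = 0.00101 and 0.00104). The beta-defensin genes of 20p, which encode antimicrobial peptides, had 5 of 6, in 3 bins, in lower bins, against 20 of 33 elsewhere, 1 of them DEFB126 at -0.5 ± 0.22. Among 6 channel and neuronal genes, 2 were in lower bins, 1 of them SHANK3, a scaffold of excitatory synapses, at -0.92 ± 0.25. The bins with the midpoints of DLGAP2, ADARB2 and PTPRN2 were not called, at -0.2 ± 0.32, -0.49 ± 0.28 and -0.47 ± 0.3. These 3 genes span several bins, however. The lowest bins of 8p, 10p and 7q lie within them, at -1.65 ± 0.35, -1.81 ± 0.29 and -1.61 ± 0.26, and all were called lower.

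Expression of the LMNB1 fusion, with LMNB1 at 258 and 262 CPM in DamV133A cells, 2530 and 1980 CPM in fusion cells and 744 and 746 CPM in untreated cells, went with moderate RNA differences at subtelomeric genes. Of 1000 tested, 198 were higher and 73 lower in DamV133A-LMNB1 over DamV133A (edgeR, adjusted over 17740 genes), 271 in all, where 20.3% of all genes were called. None of the 4 tested genes in higher bins was called. The counts were unstable: edgeR called 0 subtelomeric genes without any 1 of the DamV133A, m6ATracer or untreated libraries, 584 without DamV133A-LMNB1 library 1 and 338 without library 2. The median log2 fold change was 0.07 in subtelomeric genes and -0.02 in other genes.

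Among the genes with the smallest adjusted p, those that rose included RPL8 and RPLP2, which encode ribosomal proteins, UQCR11 and NDUFB10, subunits of the respiratory chain, PSMB1, a proteasome subunit, and PYCR1, an enzyme of proline synthesis. RPL8 at 8q had 1940 and 1870 CPM with DamV133A and 2500 and 3110 CPM with the fusion, a log2 fold change of 0.64 ± 0.1 (edgeR adjusted p = 0.018). The libraries did not overlap, and the untreated cells, at 2580 and 2550 CPM, lay with the fusion. Those that fell included TUBGCP6, a component of the gamma-tubulin ring complex, CCNL2, a cyclin of RNA splicing, WDR27, ZNF276, MAPK8IP3, a scaffold of JNK signalling and axonal transport, and FKBP1A. CCNL2 at 1p had 162 and 164 CPM with DamV133A, 110 and 119 CPM with the fusion and 119 and 123 CPM in untreated cells. FKBP1A at 20p had 882 and 873 CPM with DamV133A, 621 and 563 CPM with the fusion and 349 and 346 CPM in untreated cells. FKBP1A encodes FKBP12, from which the Shield-1-responsive domain was made, so its counts may hold construct reads and are uncertain. Of the subtelomeric list genes, IFITM1 and IFITM2 rose by 0.8 ± 0.21 and 0.73 ± 0.2 (edgeR adjusted p = 0.0366 and 0.041); IFITM1 had 1.65 and 1.71 CPM with DamV133A, 2.95 and 2.6 CPM with the fusion and 3.82 and 4.17 CPM in untreated cells. They were followed by COL18A1 and COL6A2, collagen genes of 21q, which rose by 0.24 ± 0.05 and 0.31 ± 0.07 (edgeR adjusted p = 0.0261 and 0.0284). Other lists had calls too: 2 genes of the alpha-globin region and 1 channel or neuronal gene rose. Of 79 tested zinc finger genes of subtelomeric bins 1 rose and 12 fell. Of all 455 tested zinc finger genes 16 rose and 68 fell. TERT stood at 11.2 and 11.1 CPM with DamV133A and 11.4 and 10.0 CPM with the fusion, a log2 fold change of 0.02 ± 0.09 (edgeR adjusted p = 0.874).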

How the data were processed

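Genome-wide lamina contact was measured in bulk, variant and single-cell DamID libraries, and RNA in libraries of its own. The labels do not tie an RNA library to the transfection of a DamID library. Per the file headers, the single-cell columns deposited by the authors are whole-number counts of unique fragments in each 100 kb bin, and the bulk columns are whole-number coverage counts in the same bins; the sources used here do not say whether a unit is a read or a pair. The same deposited table has the authors' log2 fold change and marks of control bins. The deposited file of Dam variants has raw counts for each DpnI fragment, summed here to the bins, and the RNA file deposited by the authors has estimated counts per gene, rounded here. Tools named in the submitters' processing notes are bedtools 2.28, SAMtools 1.9, BWA 0.7.15-r1140, Trimmomatic 0.39, Salmon, limma and DESeq2, and the build is hg38.

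Bulk libraries held 402171358 to 524019579 counts, variant libraries 3162041 to 10666805, RNA libraries 39690886 to 51455298 and cells 9526 to 348793 fragments, so a single bin of a cell has little weight. Tests used edgeR 4.0.16 in R 4.3.3 (filterByExpr, TMM, glmQLFit, glmQLFTest) over all bins, windows or genes, with Benjamini-Hochberg adjusted p under 0.05; the bulk fit used 4 libraries and the variant and RNA fits 8 each. They were tested on simulated data in which 200 features changed by 1 on the log2 scale in the DamV133A-LMNB1 libraries only. Of those changed, 72.0% of bins, 99.5% of windows, 4.5% of variant bins and 75.5% of RNA genes were recovered. The SE given with edgeR fold changes is not an output of that test. It was computed as the absolute log2 fold change divided by the square root of the F statistic. DESeq2 1.42.0 served as an alternative. The fitted bulk values differed from the authors' deposited log2 fold changes by a median of 0.046. Each gene was assigned to the bin holding the midpoint of its RefSeq span (GRCh38.p14, primary sequences), 18954 in all, of which 18324 matched an RNA gene. Of variant counts on autosomes 2.01% lay outside the bins. No 2 columns held identical values.

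The subtelomeric bins and the gene lists were chosen with earlier results of these data known. Named were the 6 highest and 6 lowest ends, the bin with the largest change in each, up to 4 genes per list, up to 3 genes with the most untreated RNA in each higher end and up to 6 RNA-called genes per direction; others are said to be chosen after their values were seen or are named for the bin they lie in.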

Additional observations from a re-analysis of the deposited data

Results flagged for a closer look

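In 6 subtelomeric bins, fusion to LMNB1 acted differently on V133A and on wild-type Dam by the interaction term of the edgeR fit, adjusted over all bins. These are 0.762% of the tested subtelomeric bins, near the 0.649% called over all bins, and with the replicate number as a block 0 were called. The log2 difference (V133A effect minus wild-type effect) was 2.09 ± 0.42 (SE) at 1p in the bin of mitochondrial pseudogenes (adjusted p = 0.0452), where the V133A effect was 1.79 and the wild-type effect -0.3. It was -4.86 at 2q in the bin of FARP2, and -2.63 and -3.49 in 1 bin each of 6p and 6q without the midpoint of a protein-coding gene. At 10q it was -5.81 in the bin of PPP2R2D and BNIP3, and at 12q -4.8 in the bin of ULK1 and PUS1. In the last 5 bins the wild-type effect lay between -0.83 and -0.03. In the DamV133A-LMNB1 libraries these 5 bins had between 3 and 41 counts each, so the size of the difference rests on few fragments. No call of the interaction remained when any 1 of 5 of the 8 libraries was left out, as given with the counts above.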

How the results depend on the processing

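The 34 lower ends stayed at 34 and the subtelomeric level stayed below other bins under each alternative run. With members within 1 Mb or 5 Mb the bulk calls were 28 or 169 higher and 287 or 1276 lower, since fewer or more bins were counted. With library totals 3 ends were higher and 10 interaction bins were called. With covered fragments in place of counts 5 wild-type and 18 interaction bins were called and the V133A minus wild-type difference was -0.54; DESeq2 called 47 and 105. That difference was -0.88 with medians over bins, -0.59 within 1 Mb and -0.74 without the 1p bin; the bulk difference was -0.64 with medians and -0.89 within 1 Mb. The 1p end of the V133A libraries turned from 0.1 to -2.1 without that bin. Contacted shares at a threshold of 2 were 18.6%, 10.1% and 12.9% in Dam-only, batch 1 and batch 2 fusion cells, and after thinning 22.0%, 11.9% and 15.6%.

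Leaving out 1 library at a time gave 52 to 68 higher and 291 to 526 lower bulk bins, 4 to 5 higher ends, 28 to 43 higher and 172 to 393 lower V133A bins, 0 to 44 wild-type bins, 0 to 96 interaction bins and 0 to 584 RNA genes. With the replicate number as a block (replicate block), bulk calls were 67 higher and 546 lower, interaction calls 0 and RNA calls 172. Same-numbered libraries had correlated deviations between -0.05 and 0.029, so the numbers only name libraries. The cause of these changes was not tested. Depth limits single bins of single cells and bins of the variant libraries.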
